A study of Homo sapiens with 6 samples.

Results

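The autophagy core and receptor genes were 35 genes, chosen by gene symbol among the 58735 genes listed for these libraries. The choice followed the role of each protein in autophagy, and the rule used no measured value. Earlier results of these data were known when the choice was made. The set held 5 genes of initiation, 5 of nucleation, 5 of membrane expansion, 10 of the conjugation machinery, 5 of the ATG8 family and 5 autophagy receptors. RNA-seq was performed on the HCT116 line, which derives from a human colorectal carcinoma, in 3 libraries of control-transfected cells (CTR) and 3 libraries of cells transfected with miR-8485 mimics. The mimics, short synthetic RNAs of 17 bases that stand in for the miRNA, were given at 50 nM and the cells were collected 48 h after transfection. Both groups came from the same cell line, and the labels describe the replicates as biologically independent. The sequence and dose of the control transfection are not given in the sources used here. Transfection was transient, so the data describe 1 cell line at 1 dose and 1 time, and untransfected cells were not analysed here.

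Autophagy delivers cytoplasmic material to the lysosome inside a double-membrane vesicle, the autophagosome. The ULK1 complex starts the process, a class III phosphatidylinositol 3-kinase complex marks the membrane, and ATG9 vesicles with the lipid transfer protein ATG2 let it grow. A pair of ubiquitin-like conjugation systems then attaches ATG8 proteins to lipid, and receptors such as SQSTM1 bind both ATG8 and their cargo.

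The question of the comparison was how the mimic altered the transcriptome. A miRNA pairs with messages mostly through its seed, bases 2 to 8, so the seed and the words that pair with it in the members' 3′ UTRs are shown first. The sequence of the mimic, with the seed in capitals, is the one stated in the study's methods.
miR-8485 mimic: cACACACAcacacguau

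The word that pairs with this seed is TGTGTGT. The canonical GENCODE 44 3′ UTR of 13 of the 35 members (37.1%) held it, against 28.9% of the tested genes with an annotated 3′ UTR. Of the 33 members tested for expression, 12 held the word. The median 3′ UTR length was 1442 bases for the members and 1287 bases for the tested genes. ATG10 held 9 overlapping or separate copies, PIK3C3 held 8, SQSTM1 held 4, and GABARAPL1 and ATG2B held 3 each. ATG13, ATG9A and ULK2 held 2 copies each, and MAP1LC3B, NBR1, OPTN, TAX1BP1 and RB1CC1 held 1 each. With the longest annotated 3′ UTR, 12 of the 35 members held the word, since TAX1BP1 had no copy there, against 30.2% of the tested genes. The windows printed here show the longest repeats and the members with the largest falls and the largest rise among those with a site. They are written on the strand of the gene, with the copies in capitals, and the positions are those of hg38.
ATG10, chr5:82254899-82254922, plus strand: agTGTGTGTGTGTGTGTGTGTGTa
PIK3C3, chr18:42085934-42085956, plus strand: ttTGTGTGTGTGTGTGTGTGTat
SQSTM1, chr5:179836763-179836786, plus strand: gtcccTGTGTGTGTGTGTgctgat
GABARAPL1, chr12:10221898-10221920, plus strand: gggaggggTGTGTGTgcgcgaca
ATG9A, chr2:219219903-219219926, minus strand: cactggccTGTGTGTgctgcttgc
NBR1, chr17:43211005-43211027, plus strand: caaatgagTGTGTGTgaggtata
A copy of the word is a match of letters, not a measured binding site.

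The libraries held 17473874 to 18480047 fragments on listed genes. The chi-square per gene between 2 libraries was 2.68 to 9.60 within the groups and 54.4 to 62.4 between them, and CTR replicate 1 stood farthest from its group. The epithelial markers EPCAM and CDH1 were present in every library with overlapping groups (log2 fold change -0.05 for each, adjusted p 0.55 and 0.378 in limma), and KRT8, KRT18 and KRT19 lay between 286 and 1230 FPKM, all 3 lower in the miR-8485 libraries. Of the markers of other cell types, the leukocyte gene PTPRC had 0 to 1 fragments, and the endothelial gene PECAM1 had 6 to 12 in CTR and 2 to 4 in miR-8485. The hepatocyte gene ALB had 1 to 3 fragments in CTR and 14 to 28 in miR-8485, and COL1A1, a gene of fibroblasts, rose from 4.25 to 6.31 FPKM. The part of these differences in the results for autophagy genes was not tested. Fewer cells of a kind and less RNA per cell cannot be told apart in such bulk libraries.

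Expression is given as FPKM, fragments divided by gene length and library total, so levels of different genes are compared per length. The highest members, as means over the 6 libraries, were SQSTM1 with 33.2 FPKM, MAP1LC3B with 27.9 FPKM, GABARAPL2 with 24.6 FPKM, ATG4D with 19.0 FPKM and ATG12 with 16.2 FPKM. The levels of ULK2, UVRAG, ATG7, ATG10, GABARAP and PIK3C3 lay between 1 and 2 FPKM. ATG2B, with 0.904 FPKM, and MAP1LC3A, with 0.105 FPKM, fell under the minimum mean of 1 FPKM for the test. The other 33 members were tested.

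**Figure D1:**
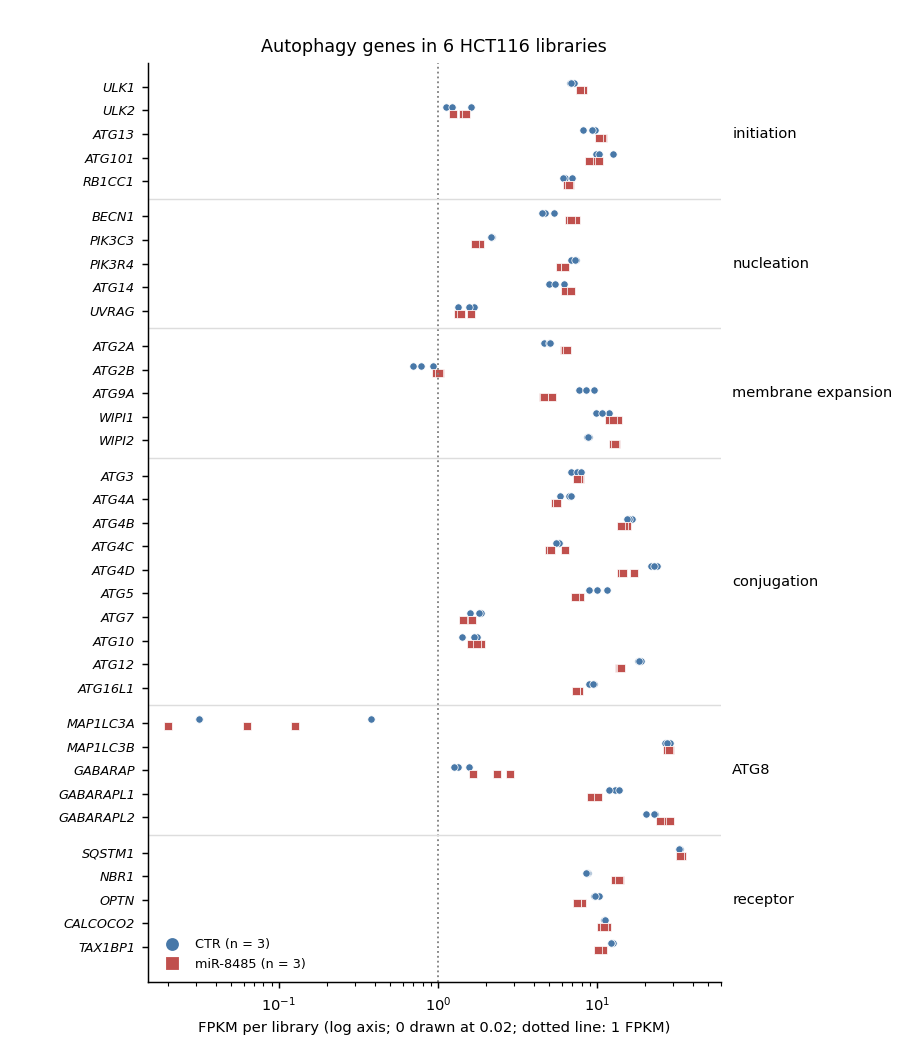
FPKM of the 35 autophagy genes in each library on a log axis, with CTR as circles and miR-8485 as squares and the genes grouped by role. SQSTM1 and MAP1LC3B had the highest means in both groups, the groups stood apart for WIPI2, NBR1 and ATG9A, and MAP1LC3A and ATG2B lay to the left of the line at 1 FPKM or around it.

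Log2 fold changes, miR-8485 minus CTR, were tested on log2(FPKM + 0.1) with limma and adjusted by Benjamini-Hochberg over the 12349 genes whose mean FPKM reached 1. On this scale the change of low genes is understated. At an adjusted p under 0.05 in limma, 10 of the 33 tested members were higher (30.3%), against 29.1% of all tested genes, and 11 were lower (33.3%), against 30.5% of all tested genes. These shares lie near the background and are no result about autophagy genes as a set. All 3 miR-8485 libraries lay above all 3 CTR libraries for 11 tested members, against 32.5% of all tested genes, and below them for 12, against 34.0%. The members had a median log2 fold change of 0.0020 and all tested genes one of -0.0041, and the median absolute values were 0.225 and 0.33. The values ran from -0.82 for ATG9A to 0.65 for GABARAP.

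Gene by gene, 11 of the 21 calls held under each of the 17 alternatives: BECN1, ATG2A, WIPI2 and NBR1 were higher, and ATG9A, ATG4D, ATG5, ATG12, ATG16L1, GABARAPL1 and OPTN were lower. The other 10 calls were lost under at least 1 alternative. The split of directions was 10 higher and 11 lower with median-of-ratios scaling and 10 and 10 with quantile normalization. It changed with rescaling to TPM, in which every library has the same sum and which moved the median of all tested genes to -0.12 and that of the members to -0.11. TPM gave 4 higher and 12 lower members, so that 25% of the called members were higher, against 47.6% with the FPKM as deposited. Over all tested genes the share was 35.6%, against 48.8%. Without CTR replicate 1, 7 members were higher and 9 were lower, and without miR-8485 replicate 2 the counts were 6 and 9.

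**Figure D2:**
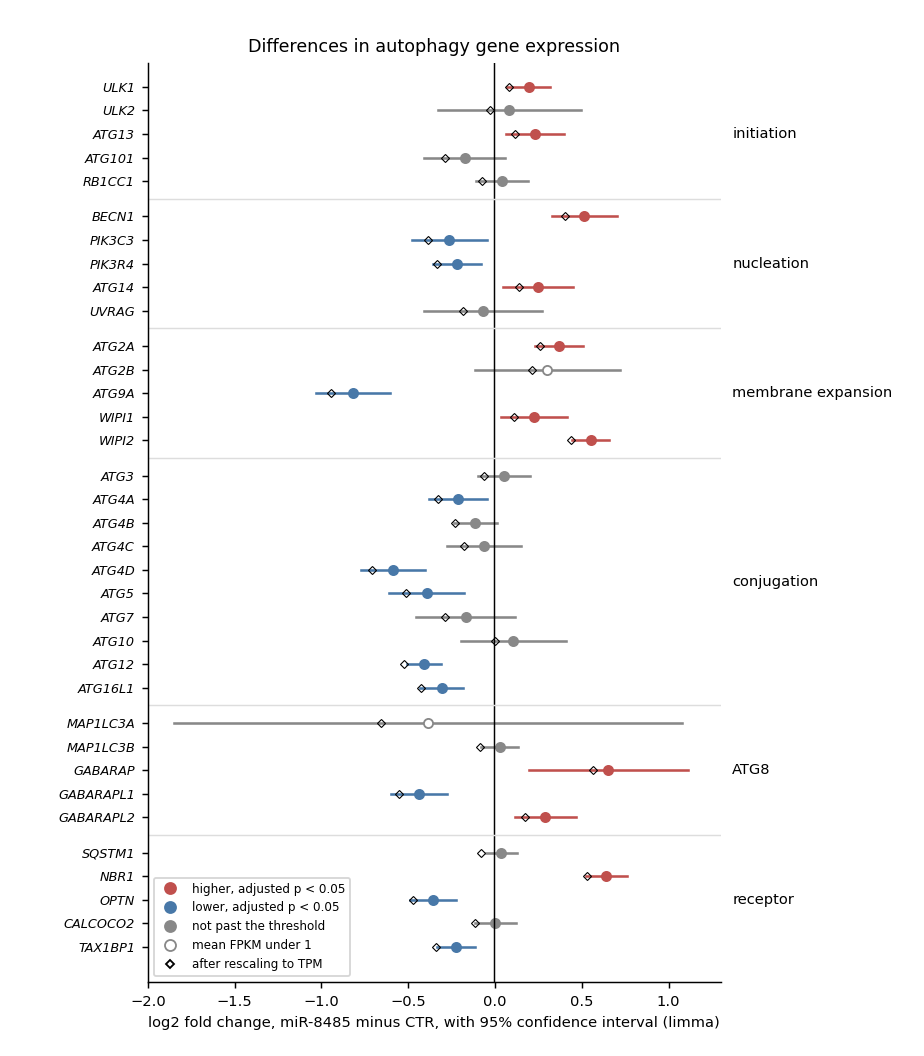
Log2 fold change of each autophagy gene with its 95% confidence interval from limma, on the FPKM as deposited, with open diamonds for the value after rescaling to TPM and a vertical line at the median of all tested genes, which lies near 0. NBR1, WIPI2 and BECN1 lie to the right of 0 and ATG9A and ATG4D to the left on both scales, whereas genes near 0, such as SQSTM1 and MAP1LC3B, change side with the scaling.

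The initiation genes differed by at most 0.23 on the log2 scale. Of the 5 genes, 2 were higher and none was lower, against 29.1% and 30.5% of all tested genes, with a median log2 fold change of 0.08 that turned to -0.03 after rescaling to TPM. ULK1, the kinase that starts autophagy, measured 7.21, 6.77 and 6.86 FPKM in CTR replicates 1 to 3 and 8.23, 7.86 and 7.79 FPKM in miR-8485 replicates 1 to 3. The groups did not overlap, and the miR-8485 libraries were the higher ones. Its log2 fold change was 0.19 (SE 0.05, adjusted p = 0.0151 in limma). ATG13, the subunit that links ULK1 to its partners, measured 8.18, 9.67 and 9.34 FPKM in CTR and 10.9, 10.7 and 10.3 FPKM in miR-8485. CTR replicate 1 was the lowest library, and the groups did not overlap here either. ATG13 had a log2 fold change of 0.23 (SE 0.07, adjusted p = 0.0255 in limma).

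The remaining initiation genes did not pass the threshold in limma. ATG101, which stabilises ATG13, had a log2 fold change of -0.17 (95% interval -0.41 to 0.06), RB1CC1, the scaffold of the complex also called FIP200, had 0.04 (-0.11 to 0.19), and the second kinase ULK2 had 0.08 (-0.33 to 0.49). Of the exon bases of ATG101, 19.2% lie in a gene of the opposite strand. The calls of ULK1 and ATG13 both depended on the setting. For ULK1, the adjusted p in limma was 0.302 after rescaling to TPM, 0.0528 without CTR replicate 2 and 0.0522 without miR-8485 replicate 1, and over all alternatives it ran from 0.0041 to 0.302. For ATG13, it was 0.143 after rescaling to TPM, 0.064 with no filter on low genes, 0.0764 without miR-8485 replicate 1 and 0.0676 without miR-8485 replicate 2, in a range of 0.0035 to 0.143.

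The nucleation genes, which encode the lipid kinase complex, did not move together. BECN1, the regulatory subunit Beclin 1, and ATG14, the subunit that directs the complex to autophagy, were higher, and the catalytic subunit PIK3C3 and its regulatory subunit PIK3R4 were lower. BECN1 (hg38 chromosome 17, 42810134 to 42833350, minus strand) measured 5.34, 4.71 and 4.49 FPKM in CTR and 6.62, 7.36 and 6.85 FPKM in miR-8485. Every miR-8485 library lay above every CTR library. BECN1 had a log2 fold change of 0.51 (SE 0.08, adjusted p = 0.0011 in limma), and it ranged from 0.41 to 0.58 over the alternatives. Of its exon bases, 17.1% also lie in genes of the opposite strand, and the strand setting of the counting is not given in the sources used here.

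PIK3C3 measured 2.19, 2.15 and 2.16 FPKM in CTR and 1.82, 1.83 and 1.72 FPKM in miR-8485, and PIK3R4 fell from 7.16 ± 0.273 to 6.14 ± 0.282 FPKM (SD, n = 3). In both genes the groups did not overlap, and the spread of PIK3C3 within each group was small. The log2 fold changes were -0.26 for PIK3C3 (SE 0.09, adjusted p = 0.0409 in limma) and -0.22 for PIK3R4 (SE 0.06, adjusted p = 0.0152 in limma). ATG14 rose from 5.55 ± 0.636 to 6.59 ± 0.274 FPKM (SD, n = 3), which is 0.25 on the log2 scale (SE 0.09, adjusted p = 0.0407 in limma). Of the exon bases of ATG14, 20.8% lie in a gene of the opposite strand. UVRAG, which takes the place of ATG14 in a second form of the complex, had a log2 fold change of -0.07 (95% interval -0.41 to 0.27). The PIK3C3 call was lost without any 1 of the 6 libraries (adjusted p 0.0746 to 0.111 in limma), with log2 fold changes of -0.28 to -0.24. Its adjusted p in limma ran from 0.0043 to 0.339 over the alternatives, the highest once the trend with gene length was removed. The ATG14 call was lost without CTR replicate 1 or 2 or without any 1 of the miR-8485 libraries (0.0615 to 0.119) and ran from 0.0087 to 0.217, the highest after rescaling to TPM. The PIK3R4 call was lost without CTR replicate 2 (0.0541) and without miR-8485 replicate 1 (0.0503), in a range from 0.0037.

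The membrane expansion genes held the largest fall of the set beside some of its larger rises. ATG9A (hg38 chromosome 2, 219219380 to 219229717, minus strand) encodes the transmembrane lipid scramblase of the ATG9 vesicles. It measured 7.71, 8.55 and 9.61 FPKM in CTR and 4.61, 4.67 and 5.22 FPKM in miR-8485. All miR-8485 libraries lay well below the lowest CTR library. The level was 0.56-fold of CTR, with a log2 fold change of -0.82 (SE 0.09, adjusted p = 2.2e-04 in limma). Of the exon bases of ATG9A, 38.8% also belong to another annotated gene on the same strand, so the fragments could be split or discarded between them. WIPI2 (hg38 chromosome 7, 5190188 to 5233826, plus strand) encodes a protein that binds the lipid made by PIK3C3 and recruits ATG16L1. It measured 8.93, 8.72 and 8.73 FPKM in CTR and 13.2, 12.7 and 12.9 FPKM in miR-8485. The libraries of each group lay close together, and the groups were far apart. Its log2 fold change was 0.55 (SE 0.05, adjusted p = 4.8e-05 in limma), or 1.47-fold.

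ATG2A, a lipid transfer protein (hg38 chromosome 11, 64894546 to 64917248, minus strand), measured 4.62, 4.97 and 5.05 FPKM in CTR and 6.20, 6.32 and 6.48 FPKM in miR-8485, without overlap. This gave a log2 fold change of 0.37 (SE 0.06, adjusted p = 0.0012 in limma). Its paralog ATG2B measured 0.781, 0.696 and 0.931 FPKM in CTR and 0.980, 1.03 and 1.01 FPKM in miR-8485, on 186 to 285 fragments per library. These values did not overlap either, but in a second limma fit over all 31768 genes above 0 the log2 fold change of 0.30 had a 95% interval of -0.11 to 0.72 and an adjusted p of 0.313. WIPI1, a relative of WIPI2, had a log2 fold change of 0.22 (SE 0.08, adjusted p = 0.0441 in limma), and 28.1% of its exon bases lie in genes of the opposite strand. The WIPI1 call was lost under 8 alternatives, among them leaving out CTR replicate 1 or 3 or miR-8485 replicate 2 or 3 (0.0892 to 0.137), and its adjusted p in limma ran from 0.0094 to 0.263, the highest after rescaling to TPM.

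**Figure D3:**
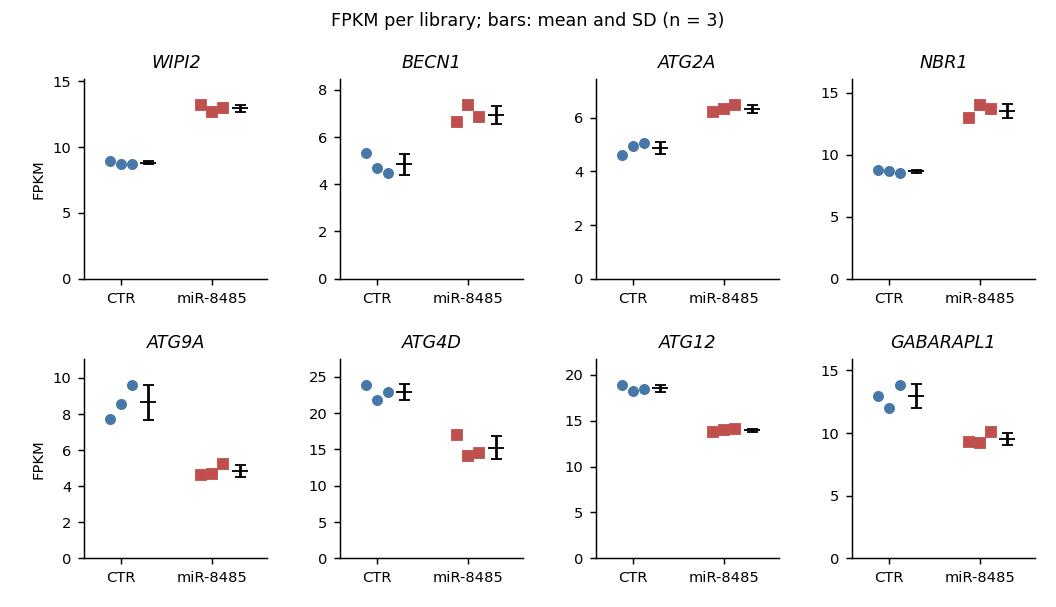
FPKM per library of 8 of the 11 autophagy genes whose calls held under every alternative. CTR is drawn as circles and miR-8485 as squares, with the mean and its SD beside them (n = 3). ATG5, ATG16L1 and OPTN, whose lower calls also held, are not drawn. The miR-8485 libraries lie above all CTR libraries for WIPI2, BECN1, ATG2A and NBR1 and below all of them for ATG9A, ATG4D, ATG12 and GABARAPL1.

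Of the 10 conjugation genes, 5 were lower in miR-8485, none was higher, and 5 did not pass the threshold in limma. The median log2 fold change was -0.19, and the miR-8485 libraries lay below all CTR libraries for 6 genes and above them for none. Among all tested genes, 29.1% were called higher and 30.5% lower, and the libraries lay below without overlap for 34.0% and above for 32.5%. The 5 lower genes held every part of the complex of ATG12, ATG5 and ATG16L1, which directs the attachment of ATG8 proteins to the membrane, and a pair of the 4 ATG4 proteases, which process ATG8 proteins.

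ATG12 (hg38 chromosome 5, 115828200 to 115841858, minus strand) measured 18.9, 18.2 and 18.5 FPKM in CTR and 13.7, 13.9 and 14.1 FPKM in miR-8485. The spread within the groups was small beside the distance between them. Its log2 fold change was -0.41 (SE 0.04, adjusted p = 1.5e-04 in limma). ATG5 (hg38 chromosome 6, 106045423 to 106325791, minus strand), to which ATG12 is joined, measured 11.5, 10.03 and 8.92 FPKM in CTR and 7.84, 7.84 and 7.30 FPKM in miR-8485. The CTR libraries of ATG5 were spread more widely, yet all lay above the miR-8485 libraries. The log2 fold change was -0.39 (SE 0.09, adjusted p = 0.0076 in limma), and it was -0.30 without CTR replicate 1, with an adjusted p of at most 0.0287 in limma over the alternatives. ATG16L1 (hg38 chromosome 2, 233210051 to 233295674, plus strand), which places the complex on the membrane, measured 8.92, 9.58 and 9.45 FPKM in CTR and 7.74, 7.36 and 7.41 FPKM in miR-8485. All its CTR libraries were again the higher ones, with a log2 fold change of -0.31 (SE 0.05, adjusted p = 0.0018 in limma).

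ATG4D (hg38 chromosome 19, 10543895 to 10553418, plus strand) measured 23.9, 21.7 and 22.9 FPKM in CTR and 17.0, 14.1 and 14.5 FPKM in miR-8485. Replicate 1 was the highest of the miR-8485 libraries, and the groups did not overlap. The log2 fold change was -0.59 (SE 0.08, adjusted p = 5.0e-04 in limma), with 14.7% of the exon bases in a gene of the opposite strand. ATG4A fell from 6.46 ± 0.529 to 5.54 ± 0.105 FPKM (SD, n = 3), which is -0.21 on the log2 scale (SE 0.07, adjusted p = 0.033 in limma). The ATG4A call was lost under 8 of the 17 alternatives, among them leaving out CTR replicate 1 or 2 or any 1 of the miR-8485 libraries (0.0676 to 0.105), and the lowest adjusted p in limma was 0.0084. ATG4B, the principal protease of the family, measured 16.6, 15.9 and 15.5 FPKM in CTR and 15.5, 14.8 and 14.1 FPKM in miR-8485. The groups touched without overlap, and the log2 fold change of -0.11 (95% interval -0.24 to 0.01) had an adjusted p of 0.102 in limma. Over the alternatives it ran from 0.0118, after rescaling to TPM, to 0.454.

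The remaining conjugation genes did not pass the threshold. ATG7, the E1-like enzyme that activates both ATG12 and ATG8 proteins, had a log2 fold change of -0.17 (95% interval -0.46 to 0.12). ATG3, the E2-like enzyme for ATG8 proteins, had 0.05 (-0.10 to 0.20), and ATG10, the E2-like enzyme for ATG12, had 0.11 (-0.19 to 0.41). The protease ATG4C had -0.06 (-0.28 to 0.15). Of the exon bases of ATG7, 18.1% lie in a gene of the opposite strand.

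The ATG8 family, the ubiquitin-like proteins that coat the autophagosome membrane, divided among its members. MAP1LC3B, the gene of the widely used marker protein LC3B, measured 28.8, 26.6 and 27.4 FPKM in CTR and 27.4, 28.7 and 28.2 FPKM in miR-8485. These ranges overlapped, and the log2 fold change was 0.03 (95% interval -0.08 to 0.14). The coding sequence of MAP1LC3B is 99.5% identical to that of MAP1LC3B2, with a shared run of 307 of 378 bases, so the fragments of the pair could be split in the counting. MAP1LC3A had only 0 to 12 fragments per library, and no direction can be read from it.

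GABARAPL1 and GABARAPL2 moved in opposite directions. GABARAPL1 (hg38 chromosome 12, 10212458 to 10223130, plus strand) measured 12.96, 11.9 and 13.8 FPKM in CTR and 9.28, 9.16 and 10.1 FPKM in miR-8485, with every miR-8485 library below every CTR library. Its log2 fold change was -0.44 (SE 0.07, adjusted p = 0.0012 in limma). GABARAPL2 measured 23.3, 20.3 and 22.8 FPKM in CTR and 27.6, 28.8 and 24.8 FPKM in miR-8485. The highest CTR library lay below the lowest miR-8485 library, and the log2 fold change was 0.29 (SE 0.08, adjusted p = 0.0125 in limma), a call that was lost after rescaling to TPM (0.17, adjusted p = 0.0992) and by no other alternative.

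GABARAP measured 1.35, 1.27 and 1.56 FPKM in CTR and 1.67, 2.37 and 2.83 FPKM in miR-8485, on 52 to 122 fragments per library. The miR-8485 libraries were widely spread, and the lowest of them lay just above the highest CTR library. The log2 fold change of 0.65 (SE 0.20, adjusted p = 0.022 in limma) was the largest of the members and the least precise among those called. Its call was lost with no filter (0.0665), after rescaling to TPM (0.0508), once the trend with gene length was removed (0.0528), and without CTR replicate 1 or 2 or miR-8485 replicate 2 or 3 (0.0527 to 0.072, with a lowest adjusted p of 0.0044 in limma over the alternatives), and the log2 fold change was 0.49 without miR-8485 replicate 3. Of the exon bases of GABARAP, 48.2% are shared with other annotated genes, and 35.4% with a gene on the same strand. The fragments of GABARAP could therefore be split or discarded, which limits its level as well as its change.

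Summed over the 5 ATG8 members, transcripts measured 64.2 ± 3.51 FPKM in CTR and 67.1 ± 1.83 FPKM in miR-8485 (SD, n = 3), and the ranges of the groups overlapped. MAP1LC3B2, with a mean of 1.86 FPKM in CTR and 2.84 FPKM in miR-8485, was no member and was left out of the sum. The shares of GABARAPL1, GABARAPL2 and GABARAP in that sum did not overlap between the groups. GABARAPL1 gave 19.4% to 21.1% of it in CTR and 13.2% to 15.3% in miR-8485, and GABARAPL2 gave 33.8% to 34.8% and 37.6% to 41.7%. MAP1LC3B had the largest mean share, 43% in CTR and 41.9% in miR-8485, but lay just under GABARAPL2 in miR-8485 replicates 1 and 2. The share of GABARAP was 2.02% to 2.38% in CTR and 2.53% to 4.29% in miR-8485, with the same limit from its shared exon bases. Any GABARAP fragments lost in the counting would also lower the sum and raise the shares of the other members. Such shares within a library do not depend on the scaling between libraries.

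**Figure D4:**
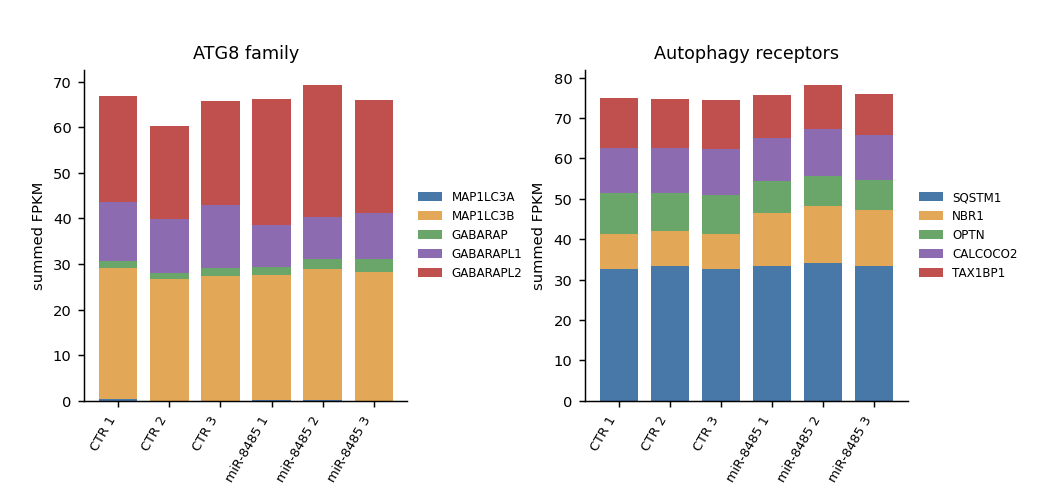
Summed FPKM of the 5 ATG8 members and of the 5 autophagy receptors in each library, stacked by gene. The total height of the ATG8 bars overlaps between the groups, while GABARAPL1 is a smaller and GABARAPL2 a larger part of the miR-8485 bars, and NBR1 is a larger part of the receptor bars.

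Of the 5 receptors, 1 was higher (20%), 2 were lower (40%) and 2 did not pass the threshold in limma, against 29.1% higher and 30.5% lower among all tested genes. SQSTM1, the gene of p62 and the best known receptor, measured 32.6, 33.3 and 32.6 FPKM in CTR and 33.4, 34.1 and 33.4 FPKM in miR-8485. The miR-8485 libraries lay above the CTR libraries by little, and the log2 fold change was 0.04 (95% interval -0.05 to 0.12, adjusted p = 0.447 in limma). It was -0.08 after rescaling to TPM, and 0.12 with an adjusted p of 0.0259 in limma once the trend with gene length was removed, the other alternatives reaching up to 0.668. Of the exon bases of SQSTM1, 22.4% lie in genes of the opposite strand.

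NBR1 (hg38 chromosome 17, 43170481 to 43211689, plus strand), a receptor that acts with SQSTM1, measured 8.72, 8.68 and 8.54 FPKM in CTR and 12.9, 14.0 and 13.7 FPKM in miR-8485. The CTR libraries were nearly equal, and every miR-8485 library was far above them. The log2 fold change was 0.64 (SE 0.05, adjusted p = 3.9e-05 in limma), or 1.57-fold, and it ranged from 0.53 to 0.74 over the alternatives. Its share of the summed receptor FPKM was 11.5% to 11.6% in CTR and 17.1% to 18% in miR-8485.

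OPTN (hg38 chromosome 10, 13099449 to 13138308, plus strand), the receptor optineurin, measured 10.2, 9.54 and 9.78 FPKM in CTR and 8.08, 7.45 and 7.49 FPKM in miR-8485, all below the CTR libraries. The log2 fold change was -0.36 (SE 0.06, adjusted p = 0.0012 in limma). TAX1BP1, a receptor related to CALCOCO2, measured 12.5, 12.3 and 12.2 FPKM in CTR and 10.6, 10.9 and 10.2 FPKM in miR-8485. The groups did not overlap, and the log2 fold change was -0.22 (SE 0.05, adjusted p = 0.0046 in limma), a call that was lost once the trend with gene length was removed (-0.12, adjusted p = 0.0797) and by no other alternative. CALCOCO2, the receptor NDP52, had a log2 fold change of 0.0020 (95% interval -0.12 to 0.12). The summed receptor FPKM was 74.8 ± 0.298 in CTR and 76.6 ± 1.32 in miR-8485 (SD, n = 3). The ranges, 74.48 to 75.08 in CTR and 75.66 to 78.09 in miR-8485, did not overlap, and the difference was not tested. Within the sum NBR1 rose while OPTN and TAX1BP1 fell.

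The calls were then set beside the seed sites. Of the 12 tested members with a site, 5 were lower (41.7%) and 2 were higher (16.7%), with a median log2 fold change of 0.03. Of the 21 without a site, 6 were lower (28.6%) and 8 were higher (38.1%), with a median of -0.06. Among all tested genes, 44.5% of the 3085 with a site were lower and 19.6% higher, with a median of -0.16. Of the 7588 without one, 29.2% were lower and 31.9% higher, with a median of 0.02. Overlapping matches within 1 repeat of TG were each counted, so the number of copies is not a number of separate sites. All 4 copies of SQSTM1 lie in 1 such repeat, as do 8 of the 9 of ATG10 and 7 of the 8 of PIK3C3. ATG10 and SQSTM1 did not pass the threshold, and PIK3C3 fell by 0.26 on the log2 scale. ATG9A, with 2 copies, fell by 0.82, whereas NBR1, with 1, was higher. ATG4D, ATG5, ATG12 and ATG16L1 had no copy in their canonical 3′ UTR.

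**Figure D5:**
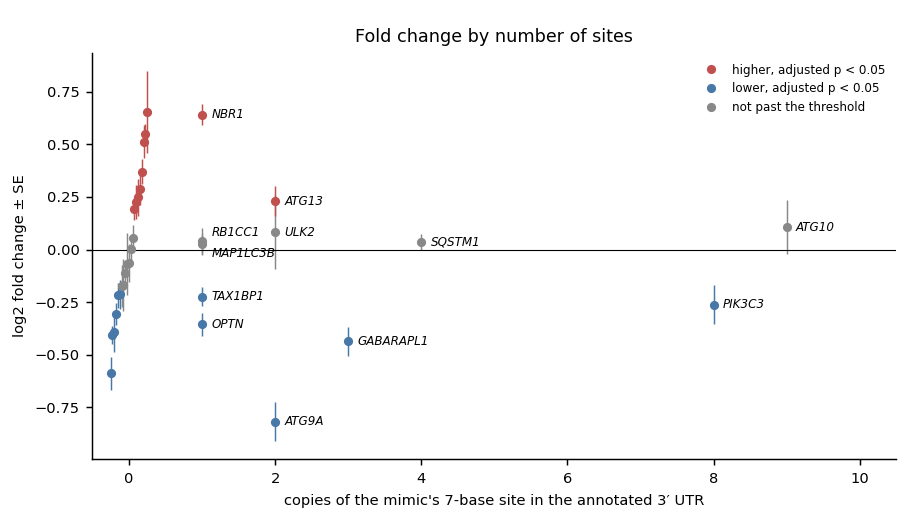
Log2 fold change with its SE against the number of copies of the seed-pairing word in the canonical 3′ UTR, for the 33 tested members, those without a copy spread out at 0 and the others named. Overlapping copies within a repeat are each counted. Members with a site lie on both sides of 0, from ATG9A with -0.82 to NBR1 with 0.64, and the members with the most copies, ATG10 and PIK3C3, lie at 0.11 and -0.26.

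The other genes of the pathway were described by 4 lists of regulators, membrane proteins, fusion proteins and further receptors. These lists were also chosen with earlier results of the data known. Of the 63 genes listed, 58 were tested, and 16 were higher (27.6%) and 22 lower (37.9%) in limma, against 29.1% and 30.5% of all tested genes. The median log2 fold change was -0.07. Of 18 genes of MTOR, AMPK and TFEB control, 5 were higher and 5 lower. DEPTOR, an inhibitor within the MTOR complexes, had the largest rise of that list (1.01, SE 0.17, on 54 to 140 fragments), and RHEB, the activator of MTOR complex 1, had the largest fall (-0.53, SE 0.08). Of the 9 tested genes among 11 other membrane and ATG genes, 3 were higher and 3 lower. The rise of MAP1LC3B2 (0.61, SE 0.17) rests on 44 to 105 fragments that could be shared with the near-identical MAP1LC3B, and its adjusted p of 0.0182 in limma became 0.0615 without miR-8485 replicate 3 and ran from 0.0104 to 0.0641 over the alternatives. WDR45B, a relative of the WIPI proteins, fell from 61.3 to 37.2 FPKM (-0.72 on the log2 scale, SE 0.04).

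Among the 14 genes of fusion with the lysosome, 3 were higher (21.4%) and 5 lower (35.7%), beside the 29.1% and 30.5% of all tested genes. RAB7A, the small GTPase of late endosomes, measured 107, 116 and 119 FPKM in CTR and 8.26, 7.63 and 9.84 FPKM in miR-8485, the largest fall of all 4 lists (-3.72, SE 0.09). SNAP29, a SNARE protein of the autophagosome, was singled out after its values were seen: it fell from 6.84 to 2.57 FPKM (-1.38, SE 0.09). PLEKHM1, an adaptor of the HOPS tethering complex, rose from 4.32 to 7.02 FPKM (0.70, SE 0.10). Of the 17 tested genes among 20 other selective receptors, 5 were higher (29.4%) and 9 lower (52.9%), beside the same shares of all genes. BCL2L13, a receptor for mitochondria, rose from 5.70 to 9.17 FPKM (0.68, SE 0.06), and ATL3, a receptor for the endoplasmic reticulum, fell from 8.46 to 3.79 FPKM (-1.14, SE 0.06). Apart from MAP1LC3B2, the adjusted p of these named genes was at most 0.0014 in limma.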

How the data were processed

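RNA-seq was performed on 6 libraries, 3 of CTR and 3 of miR-8485, grouped by the labels. Per the labels and the paper, the authors trimmed the reads, mapped them to hg38 with HISAT2 2.0.5 and counted fragments with featureCounts 1.5.0-p3. The authors deposited FPKM values, which were used as they stand, with no further scaling between libraries, and the authors' counts were not used here. In each library 100% of the values above 0 were whole fragments within a tolerance of 0.05, so that fragments could be recovered. Counting error is therefore largest for genes with few fragments.

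Differential expression was tested two-sided with limma 3.58.1 (R 4.3.3) on log2(FPKM + 0.1), using a variance trend, for genes whose mean FPKM reached 1. p-values were adjusted by Benjamini-Hochberg over 12349 genes, with a threshold of 0.05. The script was tested on simulated data. Of 58735 genes listed, 26967 were at 0 in every library. ATG2B and MAP1LC3A were taken from a fit over all 31768 genes above 0. Confidence intervals are at 95%. Sites were read from hg38 with GENCODE 44. Other calculations used Python 3.11.15.

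The rule for the members names genes by role and uses no measured value, but the members and the lists were chosen with earlier results of these data known. All members are named. In each pathway list the called genes with the largest rise and the largest fall are named, with RAB7A, the largest fall of its list, and SNAP29, which was added after its values were seen. As alternatives, the pseudocount was set to 1 or 0.01, the filter was dropped or raised to a mean FPKM of 5, the scaling was changed to median of ratios, TPM or quantiles, the trend with gene length was removed, eBayes was run without a variance trend, voom was run on recovered fragments, a replicate block was added, and each library was left out in turn.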

Additional observations from a re-analysis of the deposited data

How the results depend on the processing

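Of the members, 10 were higher with the settings as described. That count was 6 with no filter and 4 after rescaling to TPM, and 6 to 9 with 1 library left out, the lowest without miR-8485 replicate 2. With a mean FPKM of at least 5, where fewer genes were tested, 2303 of all genes were higher and 2417 lower. Rescaling to TPM turned the direction of ULK2 (-0.027), RB1CC1 (-0.076), ATG3 (-0.062), ATG10 (-0.0025), MAP1LC3B (-0.089), SQSTM1 (-0.080) and CALCOCO2 (-0.11), none of which was called. It moved the median of all tested genes from -0.0041 to -0.12. Low genes did not all move alike, as MAP1LC3A went from -0.39 to -0.65 and GABARAP from 0.65 to 0.56. The pseudocount of 0.1 was added to the TPM values too, so its weight on low genes changed with the rescaling. With a pseudocount of 0.01 on the FPKM as deposited, MAP1LC3A was at -0.91. With 1 library left out, ULK2 ran from -0.021 to 0.22, ATG3 from -0.0018 to 0.10, MAP1LC3A from -0.70 to 0.23 and CALCOCO2 from -0.030 to 0.035. For these the cause was not tested. The deviations of same-numbered libraries correlated by 0.0668, 0.0335 and -0.064, and those of libraries with other numbers by -0.0938 to 0.0608. No shared deviation by replicate number was seen, but these values cannot show whether the samples were prepared in pairs. With the replicate block, 10 members were higher and 10 lower, and PIK3C3 was not called (adjusted p = 0.0809 in limma). The depth limits MAP1LC3A, with 0 to 12 fragments, and GABARAP, with 52 to 122, most. No member's direction changed among the 21 called, under any alternative run.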
